A study of Mus musculus with 6 samples.

Results

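The genes described here make, break down and control the polyamines of the cell. They are Odc1, Amd1, Amd2, Srm and Sms for synthesis, Sat1, Smox and Paox for catabolism, and Oaz1 and Azin1 for the control of ornithine decarboxylase. They were taken by gene symbol and not by a cut on their values, although earlier results of these data were known. All 10 were found among the 24346 symbols of the tables. The study sequenced RNA of sorted luminal cells, the secretory epithelium of the mouse prostate, in 3 libraries of transgenic mice and 3 libraries of wild-type (WT) littermates. All mice were C57BL/6 and 4 months old, and the luminal cells were obtained by fluorescence-activated sorting with markers not given in the sources used here. The transgene placed mouse Csf1, the gene of the macrophage growth factor colony-stimulating factor 1, under the rat probasin promoter, which is androgen-driven and active in prostate luminal cells. Transgenic libraries are called CSF1, and the libraries of both groups carry the numbers 3, 5 and 8. Whether every library is its own animal is not in the labels, and the p-values therefore cover only the spread between these libraries, which may be technical.

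Polyamines are small, positively charged amines that bind nucleic acids and are needed for growth and translation, and the prostate secretes spermine in large amounts. Ornithine decarboxylase (Odc1) makes putrescine, S-adenosylmethionine decarboxylase (Amd1, with the near-identical Amd2) makes the aminopropyl donor, and the synthases of spermidine (Srm) and spermine (Sms) add that donor in turn. In the other direction, spermidine/spermine acetyltransferase (Sat1) marks polyamines for export or for oxidation by Paox, and spermine oxidase (Smox) turns spermine back into spermidine with release of hydrogen peroxide. Antizyme (Oaz1) carries ornithine decarboxylase to the proteasome, and the antizyme inhibitor (Azin1) binds antizyme and frees the enzyme.

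A few sequences show what sets these genes apart. Antizyme is made only when the ribosome skips a letter at a stop codon, which polyamines promote, so the level of Oaz1 RNA is not the level of the protein. In the GENCODE transcript models (GRCm38, chromosome 10, plus strand) this site reads as follows, first with the genomic letters, where the stop codon is in capitals, and then in the annotated coding model, where 1 letter is left out and the letters that stay are in capitals.
Oaz1 genomic letters: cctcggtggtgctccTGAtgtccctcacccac
Oaz1 coding model: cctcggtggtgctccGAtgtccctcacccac
Read from the start codon without the skip, this stop was reached after 68 codons. Amd1 and Amd2 are shown because their transcripts share most of their sequence. Of the 25-base words of their GENCODE transcripts, which are 3204 and 3218 bases long, 93.1% of those of Amd1 occurred in Amd2 and 92.6% of those of Amd2 in Amd1. RefSeq (GRCm38.p6) places Amd1 at chr10:40287458-40302188 and Amd2 at chr10:35708691-35711891. In GENCODE both genes are on the minus strand, and these transcripts have 8 exons for Amd1 and 1 exon for Amd2. The 40 bases before each start and the 30 bases after it follow, with the longest run that these printed windows share, 28 bases, in capitals.
Amd1 start (chr10:40302159-40302228, minus strand): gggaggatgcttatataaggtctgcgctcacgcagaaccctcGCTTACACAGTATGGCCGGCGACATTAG
Amd2 start (chr10:35711862-35711931, minus strand): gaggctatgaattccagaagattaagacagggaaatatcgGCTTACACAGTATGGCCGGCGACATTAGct

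Smox and Sat1 were the genes of the set that rose, and their RefSeq promoters (GRCm38.p6, the 250 bases before the start) are printed for that reason. Each was searched on both strands for an E-box (CACGTG), the core of the antioxidant response element (TGACNNNGC), a STAT element (TTCNNNGAA) and the NF-kB consensus by name. Capitals mark a match.
Smox promoter (chr2:131491612-131491861, plus strand): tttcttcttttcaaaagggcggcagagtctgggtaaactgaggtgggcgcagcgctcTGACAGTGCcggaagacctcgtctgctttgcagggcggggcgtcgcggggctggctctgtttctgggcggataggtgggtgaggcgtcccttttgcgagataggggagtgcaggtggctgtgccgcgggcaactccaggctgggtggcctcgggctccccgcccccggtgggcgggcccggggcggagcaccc
Sat1 promoter (chrX:155216450-155216699, minus strand): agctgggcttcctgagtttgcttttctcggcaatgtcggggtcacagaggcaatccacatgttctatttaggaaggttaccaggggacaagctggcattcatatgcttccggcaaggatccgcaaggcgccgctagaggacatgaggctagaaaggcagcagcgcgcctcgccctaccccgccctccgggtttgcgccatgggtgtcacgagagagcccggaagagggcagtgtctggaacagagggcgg
The Smox window held 1 match to the antioxidant core, with its first base at -193 relative to the start, and the Sat1 window held no match to any of these motifs. Of 32851 mouse promoter windows, 10.2% held the antioxidant core, 6.02% the E-box, 7.02% the STAT element and 3.9% the NF-kB consensus. A window was found for 8 of the 10 genes (not for Srm and Azin1), and the windows of Odc1, Amd1, Amd2 and Paox held no match. Oaz1 held the antioxidant core (TGACGACGC, first base at -13) and an NF-kB match, and the windows of Sms held 1 E-box and 1 NF-kB match, so matches were not limited to genes that rose. These letters describe the windows only.

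As a check of the labels, Csf1 lay at 1.54 to 3.98 FPKM (fragment counts divided by transcript length and by the library's mapped fragments) in WT and reached 1082 to 1678 FPKM in CSF1. Luminal markers summed to 4901 to 6319 FPKM in WT and 5238 to 7011 FPKM in CSF1, so the labelled cell type was present in every library. Of the 10 luminal markers tested, 3 rose (Cdh1, Epcam and Prom1), 1 fell (Hoxb13) and 6 did not pass, so the sum hides changes in both directions. Summed markers of other cell types were higher in every CSF1 library than in any WT library. Macrophage markers summed to 27.7, 37.6 and 135 FPKM in WT and to 881, 1091 and 3528 FPKM in CSF1 libraries 3, 5 and 8, and 14 of 14 tested rose. Basal markers ranged from 32.5 to 44.0 FPKM in WT and from 400 to 537 FPKM in CSF1 (4 of 5 tested rose), and stromal markers from 97.8 to 114 FPKM and from 506 to 744 FPKM (8 of 8 rose). Endothelial markers summed to 1.08 to 2.49 FPKM in WT and 10.6 to 14.4 FPKM in CSF1 (3 of 3 tested rose), and lymphocyte markers to 0.446 to 1.12 FPKM in WT and 7.17 to 24.1 FPKM in CSF1 (2 of 2 tested rose), with Ms4a1 listed at 0 in every WT library. Neutrophil markers reached at most 0.0930 FPKM in WT and 1.97 to 33.1 FPKM in CSF1, with Camp, Csf3r, Ngp and S100a8 listed at 0 in every WT library. Ngp was also at 0 in every CSF1 library, and Camp was above 0 only in CSF1 library 8 (0.178 FPKM). The only neutrophil marker tested, S100a8, did not pass (limma adjusted p = 0.0872), and CSF1 libraries 3 and 5 summed to 1.97 and 2.81 FPKM against 33.1 FPKM in library 8. The part that RNA of these cells had in the values below was not tested, and in such bulk samples a change in the share of a cell type and a change in RNA per cell cannot be told apart.

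In the CSF1 libraries the catabolic genes Smox and Sat1 rose and the synthetic genes Srm and Odc1 fell. Of the 8 genes that could be tested, 2 were higher (Smox and Sat1), 2 were lower (Srm and Odc1) and 4 did not pass (Sms, Paox, Oaz1 and Azin1), by limma on log2(FPKM + 1) with a Benjamini-Hochberg adjusted p under 0.05 over 10951 genes. Among all tested genes, 32.4% passed, with 24.9% higher and 7.47% lower, so that 2 rises among 8 genes are near the background share, and 2 falls among 8 are above it on few genes. Amd1 and Amd2 were not tested, because the tables mark their values as failed in 5 of the 6 libraries. The median log2 change was -0.21 over the 8 genes and 0.17 over all tested genes. The latter was -0.16 after quantile normalization, -0.0090 after median-ratio scaling and 0.0028 when FPKM was rescaled outside the 5 most abundant genes. The share of called genes that were higher was 77.0% with FPKM as deposited and 41.8%, 55.7% and 59.7% with these scalings. Of all tested genes, 7.47% were lower as deposited and 21.6%, 15.3% and 13.1% with the same scalings, so the background of falls depends on the scaling. Of the 8 genes, 2 were lower as deposited and 4, 2 and 2 with the same scalings. Relative to the median of all genes as deposited, the changes were 2.45 for Smox, 1.05 for Sat1, -0.07 for Oaz1, -0.21 for Azin1, -0.54 for Paox, -0.58 for Sms, -0.78 for Odc1 and -1.27 for Srm. The groups did not overlap in 4 of the 8 genes (Smox, Sat1, Srm and Odc1). Of all tested genes 47.7% had groups without overlap, 34.7% with CSF1 higher and 13.1% with CSF1 lower. With 3 libraries against 3, the exact permutation test cannot give a p under 0.1.

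**Figure D1:**
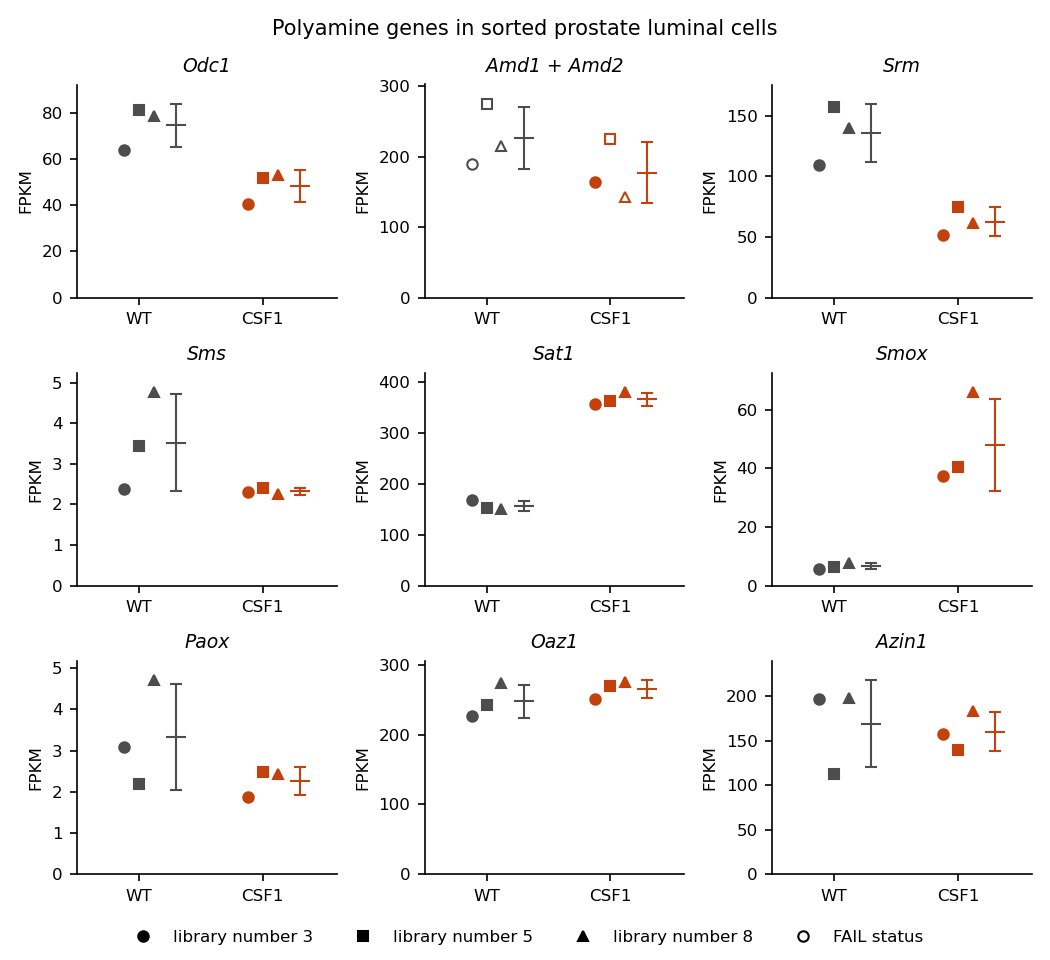
FPKM of each gene (vertical axis, from 0) in the 3 WT and 3 CSF1 libraries, with the symbol giving the library number and the bars giving mean ± SD. Open symbols mark libraries with a failed status for Amd1 and Amd2, which are added up; Sat1 and Smox lie higher in every CSF1 library, and Odc1 and Srm lie lower.

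Odc1 encodes the first enzyme of the pathway and is at chr12:17544808-17551502 on the plus strand. It measured 64.0, 81.4 and 78.5 FPKM in WT libraries 3, 5 and 8 and 40.5, 51.9 and 53.2 FPKM in CSF1 libraries 3, 5 and 8. Number 3 was the lowest library of each group, and every CSF1 library was below every WT library. The mean was 74.7 ± 9.32 FPKM in WT and 48.5 ± 6.96 FPKM in CSF1 (SD, n = 3 each), 1.54-fold lower. The log2 change was -0.61 ± 0.16 (SE; 95% interval -0.98 to -0.25; limma adjusted p = 0.0181; exact two-sided permutation p = 0.1). Between libraries of the same number the differences in log2(FPKM + 1) were -0.65, -0.64 and -0.55, close to each other. The call ended without WT library 5 (-0.55, limma adjusted p = 0.0798), without WT library 8 (-0.57, 0.0574) and without CSF1 library 3 (-0.49, 0.0632).

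Srm encodes spermidine synthase and is at chr4:148591513-148594619 on the plus strand. It had the largest fall of the tested genes of the set. Its values were 109.6, 157 and 140 FPKM in WT libraries 3, 5 and 8 and 51.3, 75.0 and 61.7 FPKM in the CSF1 libraries. No CSF1 library reached the lowest WT library, and number 5 was the highest of each group. The group means were 136 ± 24.1 FPKM in WT and 62.7 ± 11.9 FPKM in CSF1 (SD, n = 3 each), 2.16-fold lower. The log2 change was -1.10 ± 0.19 (SE; 95% interval -1.53 to -0.68; limma adjusted p = 0.00250; exact two-sided permutation p = 0.1). It had the 252nd largest fall of the 10951 tested genes. The call held in all 16 alternative settings, with limma adjusted p from 0.000629 to 0.0147.

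Sms encodes spermine synthase (chrX:157443851-157492287, minus strand) and was far less abundant than Srm. It measured 2.38, 3.43 and 4.76 FPKM in WT libraries 3, 5 and 8 and 2.30, 2.42 and 2.26 FPKM in the CSF1 libraries. The WT libraries spread over a wide range and the lowest of them lay among the CSF1 libraries, which were close together. The log2 change was -0.41 ± 0.23 (95% interval -0.92 to 0.10; limma adjusted p = 0.203; exact permutation p = 0.2), which did not pass. It passed with quantile normalization (-0.84, limma adjusted p = 0.0167). The confidence bounds that Cufflinks gives for Sms lay 9.88% to 13.2% from the value, against 2.58% to 4.09% for Srm and 2.48% to 3.19% for Odc1, so these low values are less exact.

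Amd1 and Amd2 make the decarboxylated donor that both synthases use. For Amd1 the tables list 189.6, 275 and 216 FPKM in WT libraries 3, 5 and 8, and 116, 226 and 143 FPKM for the CSF1 libraries. Its status was FAIL in 5 of 6 libraries, and CSF1 library 3 alone was marked as estimated. Amd2 was listed at 48.3 FPKM in that same library and at 0, with the status FAIL, in the other 5. The 0 of Amd2 is thus a failed estimate and no measurement of absence. The lowest Amd1 value stands in the library where both entries were given a value. In the tables the Amd2 transcript lies at chr10:40287465-40302186, on the interval of Amd1, and not at the RefSeq locus of Amd2 given above. The shared words given above are those of the single-exon GENCODE model of Amd2, and not of this transcript. Added up, both entries of this interval came to 190, 275 and 216 FPKM in WT and 164, 226 and 143 FPKM in CSF1. The means were 227 ± 43.9 and 178 ± 43.2 FPKM. The groups overlapped, and the difference of -0.36 on the log2 scale did not pass against the spread within the groups (SE 0.20, limma adjusted p = 0.216; exact permutation p = 0.3). Between libraries of the same number the sum was lower in CSF1 in 3 of 3 pairs, and with the number as a block the limma adjusted p was 0.0632. The sum and both of its fits were chosen after the data had been seen.

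Sat1 encodes the acetyltransferase that starts polyamine export and breakdown (chrX:155213126-155216449, minus strand). WT libraries 3, 5 and 8 held 168, 153 and 150 FPKM, and the CSF1 libraries of the same numbers held 357, 362 and 380 FPKM. Both groups were tight and far apart, and the lowest CSF1 library stood above the highest WT library. The group means were 157 ± 9.64 FPKM in WT and 366 ± 12.4 FPKM in CSF1, 2.33-fold higher. This was a log2 change of 1.22 ± 0.12 (95% interval 0.96 to 1.48; limma adjusted p = 0.000137; exact permutation p = 0.1). Its place among the levels of all tested genes moved from percentile 95.7 in WT to 98.1 in CSF1. The tables hold 2 transcripts of Sat1, and 1 of them was listed at 0 in every library.

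Smox encodes spermine oxidase (chr2:131491858-131525183, plus strand) and rose the most of the set. Its summed transcripts measured 5.88, 6.53 and 7.81 FPKM in WT libraries 3, 5 and 8 and 37.4, 40.5 and 66.0 FPKM in the CSF1 libraries. Every CSF1 library was several-fold above the highest WT library, and CSF1 library 8 stood above the other two. The group means were 6.74 ± 0.984 FPKM in WT and 47.9 ± 15.7 FPKM in CSF1, 7.11-fold higher. This was a log2 change of 2.62 ± 0.22 (95% interval 2.11 to 3.14; limma adjusted p = 8.19e-05; exact permutation p = 0.1). It had the 408th largest rise of all tested genes and moved from percentile 46.8 of the levels in WT to percentile 84.1 in CSF1.

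The order of the libraries for Smox (3, then 5, then 8, in each group) was also the order of the summed macrophage markers given above. Csf1 and Oaz1 had this order in each group as well, so it was not particular to macrophage markers. Within CSF1, Sat1 followed the same order but spanned only 357 to 380 FPKM, while the macrophage sum spanned 881 to 3528 FPKM. In WT, Sat1 ran the other way, from 168 FPKM in library 3 to 150 FPKM in library 8. Without CSF1 library 8, the library with the highest macrophage sum, the log2 change was 2.37 for Smox (limma adjusted p = 5.78e-05) and 1.19 for Sat1 (0.000331). Without the same library it was -1.10 for Srm (0.00618) and -0.68 for Odc1 (0.0206). The macrophage sums of the CSF1 libraries that stay, 881 and 1091 FPKM, are still above every WT library. An order of 3 libraries a group carries little information, and the cell source of these values was not tested.

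Of the 9 Smox transcripts in the tables, 6 were above 0 in at least 1 library. The transcript NM_145533 held 38.4%, 41.8% and 69.0% of Smox FPKM in WT libraries 3, 5 and 8 and 59.7%, 53.8% and 40.1% in the CSF1 libraries. Its share ranged as widely within a group as between the groups. NM_001177839 took 30.8%, 0% and 31.0% of Smox in the WT libraries, against 29.6%, 27.8% and 26.5% in the CSF1 libraries, where the 0 of WT library 5 is the estimate of a split between overlapping transcripts at a low level. The rise was thus read from the sum, since the split over transcripts was uneven between libraries of the same group.

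**Figure D2:**
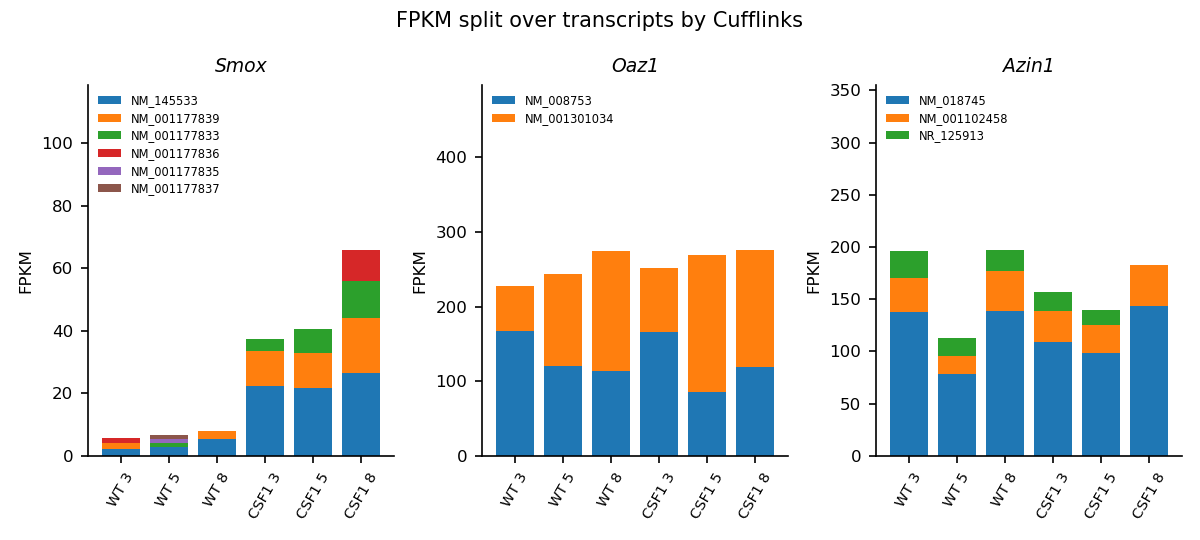
FPKM (vertical axis) of Smox, Oaz1 and Azin1 in each of the 6 libraries, stacked by transcript as split by Cufflinks, with transcripts at 0 in every library left out. The Smox bars of CSF1 reach 37.4 to 66.0 FPKM against 5.88 to 7.81 FPKM in WT, and the split of Oaz1 differs between libraries of 1 group.

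Paox encodes the oxidase of acetylated polyamines that acts after Sat1 (chr7:140115735-140134334, plus strand), and unlike Sat1 and Smox it was lower on average in CSF1. It measured 3.09, 2.18 and 4.71 FPKM in WT libraries 3, 5 and 8 and 1.87, 2.48 and 2.43 FPKM in the CSF1 libraries. The groups overlapped, since WT library 5 lay between the CSF1 libraries. The log2 change of -0.37 ± 0.24 did not pass (95% interval -0.93 to 0.19; limma adjusted p = 0.287; exact permutation p = 0.3), although it did with quantile normalization (-0.83, limma adjusted p = 0.0275). Cufflinks' bounds for Paox lay 14.5% to 18.6% from the value, the widest among the genes of the set with 1 listed transcript. In GENCODE the exons of Paox overlap those of Echs1 on the opposite strand, and the kits named in the labels do not mark strand. Reads of both genes cannot be told apart in such an overlap. The Paox transcript behind these values lies at chr7:140125685-140134334, and whether the overlap reaches it was not examined.

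Oaz1, the antizyme gene (chr10:80826656-80829290, plus strand), was among the most abundant genes of the set in both groups. It measured 228, 243 and 274 FPKM in WT libraries 3, 5 and 8 and 252, 269 and 276 FPKM in the CSF1 libraries. The groups overlapped, with WT library 8 close to the highest CSF1 library. The mean was 248 ± 23.8 FPKM in WT and 266 ± 12.4 FPKM in CSF1, a log2 change of 0.10 ± 0.12 that did not pass (95% interval -0.18 to 0.39; limma adjusted p = 0.574; exact permutation p = 0.3). The sign turned with quantile normalization (-0.087), median-ratio scaling (-0.11) and rescaling outside the 5 most abundant genes (-0.093), so no direction is given for this gene. Its 2 listed transcripts, of 1075 and 1069 bases, shared the reads unevenly, and the longer took 73.4%, 49.5% and 41.4% in WT and 65.8%, 32.0% and 43.1% in CSF1.

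Azin1, the antizyme inhibitor (chr15:38487430-38519294, minus strand), varied more within WT than between the groups. It measured 197, 113 and 198 FPKM in WT libraries 3, 5 and 8 and 157, 139 and 183 FPKM in the CSF1 libraries. WT library 5 was the lowest of all and the other 2 WT libraries the highest of all, so that the CSF1 libraries lay between them. The log2 change was -0.04 ± 0.23 (95% interval -0.56 to 0.48; limma adjusted p = 0.913; exact permutation p = 0.8), and its sign turned with array weights (0.15) and without WT library 3 (0.09), WT library 8 (0.10) or CSF1 library 5 (0.05). It did not pass in any of the 16 alternative settings. The transcript NM_018745 held 69.0% to 78.3% of Azin1 in every library.

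Ratios of genes within a library were compared for 5 pairs. A ratio of listed FPKM does not change when all values of a library are multiplied by 1 factor, but the ratios of FPKM + 1 that were tested, and quantile-normalized values, can. Sat1 to Odc1, catabolism against the first step of synthesis, was 2.62, 1.88 and 1.91 in WT libraries 3, 5 and 8 and 8.79, 6.97 and 7.14 in the CSF1 libraries as ratios of the listed FPKM. On the log2 scale of FPKM + 1 this ratio was 1.07 ± 0.27 in WT and 2.90 ± 0.18 in CSF1, a difference of 1.83. Odc1 to Oaz1, the enzyme against its antizyme, was -1.72 ± 0.14 in WT and -2.44 ± 0.15 in CSF1, a difference of -0.72. Srm to Sms, the spermidine against the spermine synthase, was 4.93 in WT and 4.24 in CSF1, a difference of -0.69. As ratios of listed FPKM, Srm to Sms was 46.1, 45.8 and 29.4 in WT libraries 3, 5 and 8 and 22.3, 31.0 and 27.3 in the CSF1 libraries, so that the groups overlapped there.

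Smox to Sat1 went from -4.36 in WT to -2.95 in CSF1, a difference of 1.40 that was 0.94 with a pseudocount of 5. On the log2 scale of FPKM + 1 the groups did not overlap in these 4 ratios (in Srm to Sms only with the pseudocount), and each gave the smallest exact permutation p that 3 against 3 allows (p = 0.1, 0.125 after Benjamini-Hochberg adjustment over the 5 ratios). Azin1 to Oaz1 was -0.59 ± 0.46 in WT and -0.74 ± 0.19 in CSF1, and the difference of -0.14 was smaller than the spread (exact permutation p = 0.7).

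**Figure D3:**
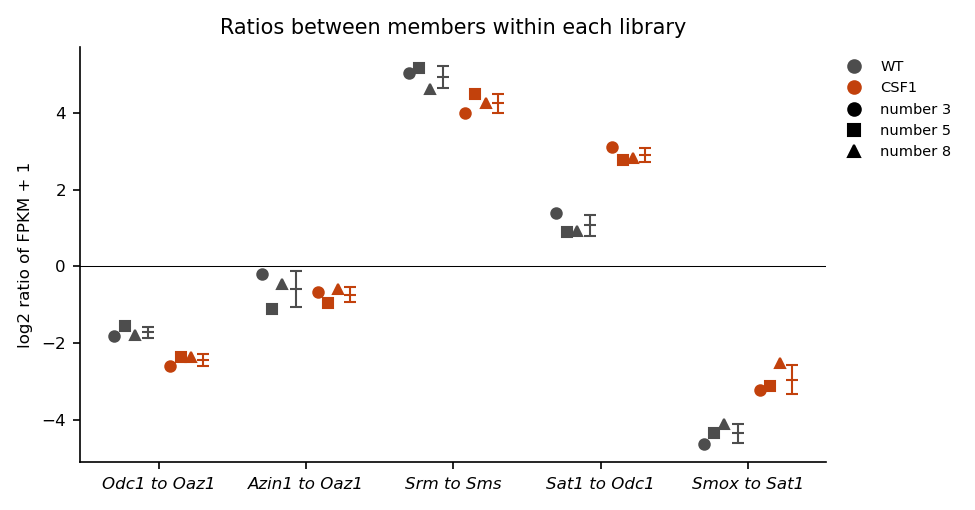
Log2 ratio of FPKM + 1 between pairs of genes (vertical axis) in each library, with the symbol giving the library number and the bars giving mean ± SD. Sat1 to Odc1 averages 1.07 in WT and 2.90 in CSF1, and in Azin1 to Oaz1 the groups overlap; Srm to Sms overlaps when computed on listed FPKM.

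Around the pathway, 45 further genes were listed for the supply of arginine and ornithine, the antizyme family, transport, turnover of acetylated polyamines, hypusination, the methionine cycle and transglutaminases. Of these, 30 could be tested, 4 were higher (24.9% of all genes were), 6 were lower (7.47% of all genes were) and 20 did not pass. With quantile normalization 9 were lower (21.6% of all genes were). With median-ratio scaling 7 were lower (15.3% of all genes), as were 7 with rescaling outside the 5 most abundant genes (13.1%). The median log2 change of the 30 genes with FPKM as deposited was -0.00. The groups did not overlap in 6 genes that were higher in CSF1 (34.7% of all genes were) and 8 that were lower (13.1% of all genes were). The 15 genes not tested had a mean under 1 FPKM over the 6 libraries.

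Ornithine, the substrate of Odc1, is made from arginine by the arginases, and both arginase genes changed, in opposite directions. Arg1, the cytosolic form that macrophages are also known to make, measured 2.88, 2.51 and 6.23 FPKM in WT libraries 3, 5 and 8 and 27.3, 25.6 and 30.7 FPKM in the CSF1 libraries (log2 change 2.64, limma adjusted p = 0.000184). Arg2, the mitochondrial form, measured 85.0, 109 and 131 FPKM in WT and 69.0, 83.9 and 58.4 FPKM in CSF1 (-0.61, limma adjusted p = 0.0427). Neither gene overlapped between the groups, and Arg2 stayed the more abundant of both in every library by FPKM. The Arg2 call ended without any filter on low values (limma adjusted p = 0.0877) and when WT library 5 (0.123), WT library 8 (0.127), CSF1 library 3 (0.0981) or CSF1 library 8 (0.112) was left out.

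Gatm, which draws arginine and glycine into creatine synthesis, measured 0.263, 0.147 and 0.943 FPKM in WT libraries 3, 5 and 8, against 11.0, 9.03 and 21.6 FPKM in the CSF1 libraries (3.30, limma adjusted p = 0.000184). Asl, the argininosuccinate lyase that forms arginine, fell by 0.93 on the log2 scale (limma adjusted p = 0.00912). Oat, the mitochondrial ornithine aminotransferase, did not pass (-0.06, limma adjusted p = 0.752). In this list of 12 genes, 7 were tested, with 2 higher, 2 lower and 3 that did not pass. In each group, library 8 had the highest Arg1 and Gatm and also the highest macrophage sum (135 FPKM in WT). In each group, library 3 was above library 5 in Arg1 and Gatm but below it in the macrophage sum. The part of macrophage RNA in these values was not tested.

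The methionine cycle supplies the aminopropyl donor and recovers its by-product, and 2 of its 8 tested genes fell. In this list 0 genes were higher by limma, also at an unadjusted p under 0.05. Mat2a, which makes S-adenosylmethionine, measured 398, 507 and 689 FPKM in WT libraries 3, 5 and 8, against 263, 304 and 194 FPKM in the CSF1 libraries (log2 change -1.05, limma adjusted p = 0.00896). Adi1, a dioxygenase of methionine salvage, measured 199, 237 and 273 FPKM in WT, against 99.7, 127 and 103 FPKM in CSF1 (-1.09, limma adjusted p = 0.00126). In both genes every CSF1 library was below every WT library. Mtap takes up the methylthioadenosine left by Srm and Sms. Its FPKM was higher in every CSF1 library than in any WT library, but it did not pass (0.35, limma adjusted p = 0.129). After quantile normalization the change of Mtap was 0.068 (limma adjusted p = 0.717).

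Hypusination, the modification of the translation factor eIF5A with a part of spermidine, had 0 genes past the threshold among 3 tested, and 0 at an unadjusted p under 0.05 by limma. Eif5a itself changed by 0.01 (limma adjusted p = 0.955), Dhps by 0.35 (0.123) and Dohh by -0.36 (0.295). The sign of Eif5a turned with quantile normalization, median-ratio scaling and rescaling outside the 5 most abundant genes, and Dohh passed without WT library 3 (-0.65, limma adjusted p = 0.0217).

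Among regulators, Oaz2, the second antizyme gene, was higher in every CSF1 library than in any WT library but did not pass (0.33, limma adjusted p = 0.0907). It passed with array weights (0.40, limma adjusted p = 0.0261), and was 0.12 after quantile normalization, 0.12 after median-ratio scaling and 0.14 when rescaled outside the 5 most abundant genes, with limma adjusted p from 0.430 to 0.459. Myc, a known activator of Odc1 transcription, was lower in every CSF1 library than in any WT library and did not pass either (-0.26, limma adjusted p = 0.206). Azin2, the second antizyme inhibitor, was at or below 1.69 FPKM in all libraries and was not tested.

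Of the transport genes, Gpc1, a glypican linked to polyamine uptake, rose by 1.87 on the log2 scale (limma adjusted p = 0.0109), from 0.844, 0.599 and 1.33 FPKM in WT libraries 3, 5 and 8 to 4.84, 13.5 and 2.96 FPKM in the CSF1 libraries. Atp13a2, the lysosomal polyamine exporter, fell by 0.59 (limma adjusted p = 0.0276). Hdac10, the deacetylase of acetylspermidine, fell by 0.76 (limma adjusted p = 0.0325). The Atp13a2 and Hdac10 calls ended when any of several libraries was left out, with limma adjusted p up to 0.0811 for Atp13a2 and 0.106 for Hdac10. Tgm2, a transglutaminase that can join polyamines to proteins, rose from 2.43, 1.71 and 2.09 FPKM to 24.0, 33.3 and 25.2 FPKM (3.20, limma adjusted p = 1.07e-05), with no overlap between the groups.

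**Figure D4:**
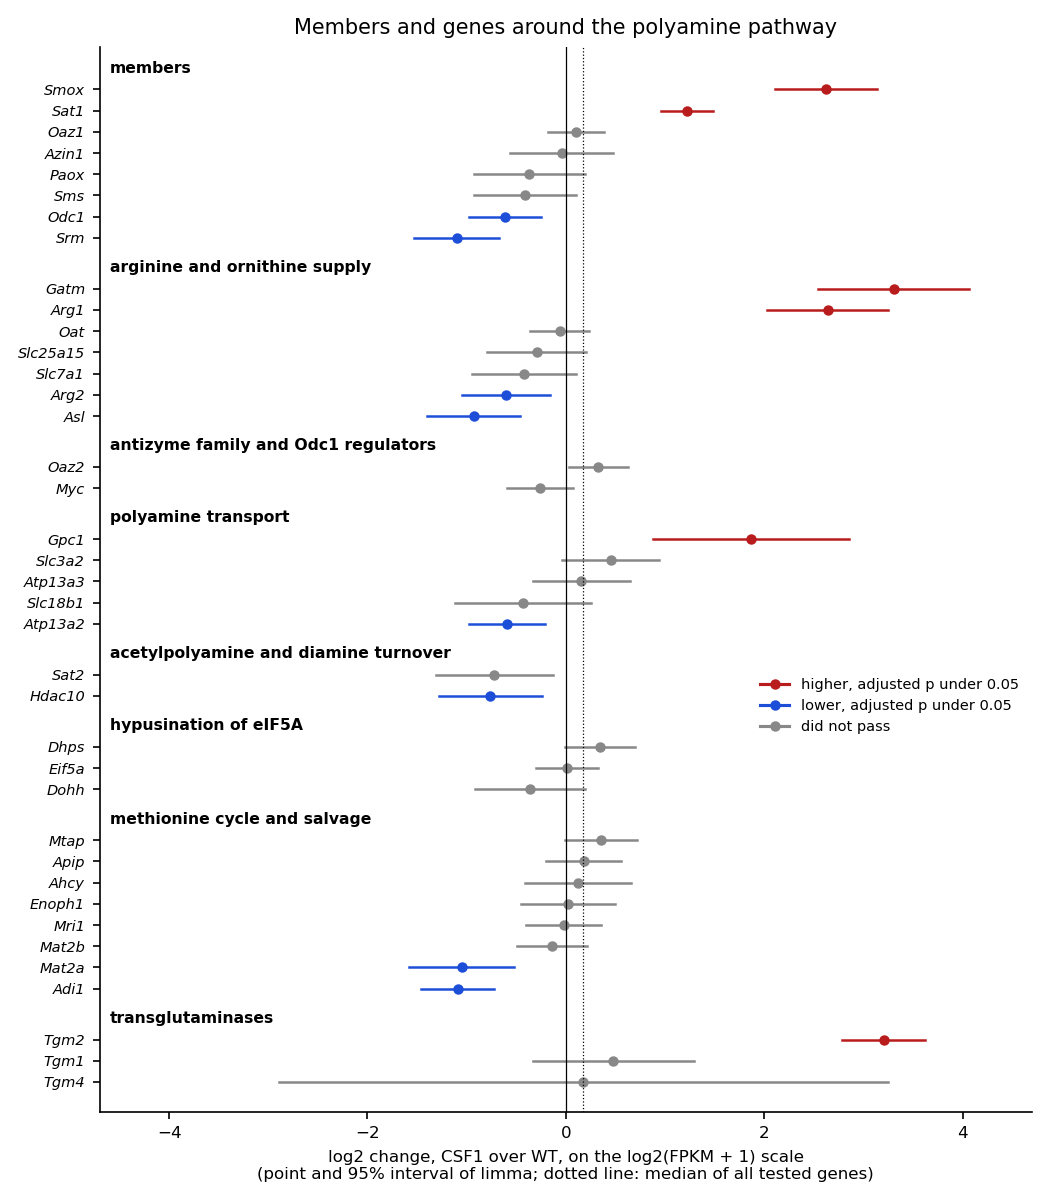
Log2 change of CSF1 over WT (horizontal axis, points with 95% intervals of limma) for the 8 tested genes of the set and the 30 tested genes around the pathway, grouped by role. The dotted line is the median of all tested genes (0.17); Smox and Sat1 lie to its right and Odc1 and Srm to its left with intervals that do not reach it.

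For Odc1 and Sat1, the 3 tested genes with the most similar profile over the 6 libraries were found by the root mean square distance of centred log2(FPKM + 1). For Odc1 they were Mettl1 (distance 0.06), Manbal (0.07) and Alg3 (0.07). For Sat1 they were Cyp4f16 (0.05), Trim34a (0.07) and Slc12a7 (0.08). With 6 libraries in 2 groups, this likeness rests mainly on the difference between the groups.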

How the data were processed

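Per the labels' protocols, the SMART-Seq v4 kit gave the cDNA, which was sequenced on an Illumina HiSeq. Per the submitters' processing notes, the tools were bcl2fastq 1.8.3, TopHat and Cufflinks (no version stated) with mm10. Each deposited isoform table gives FPKM and its confidence bounds for 34535 transcripts. The deposited coverage signal was 1 constant times FPKM in each table. This constant, which grows with depth, was 3.19, 3.50 and 2.72 in WT libraries 3, 5 and 8, against 4.17, 5.01 and 4.37 in CSF1. Fragment totals are not in the columns used, so no counting interval is given.

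FPKM was summed per symbol. The 9 genes with a FAIL or HIDATA (too many fragments) status in any library were left out. Genes whose mean reached 1 FPKM were tested on log2(FPKM + 1) with limma 3.58.1 in R 4.3.3 (moderated statistic, intensity trend, not robust, two-sided, Benjamini-Hochberg, threshold 0.05). Changes on this scale understate those of low genes, and a gene low in 1 group passed the filter only if it was high in the other. Exact permutation tests were two-sided. The fit was tested on simulated data. Deviations from the group means correlated between libraries of the same number (r = 0.26, 0.11 and 0.18 for 3, 5 and 8), so the numbers were treated as pairing the libraries in an alternative fit, although the labels do not state their meaning. Of the genes around the pathway, every gene past the threshold could be named, and Arg1, Arg2, Oat, Mat2a, Mtap, Eif5a, Dhps, Dohh, Oaz2, Azin2 and Myc were named whatever their result. The genes, lists and tests were chosen with earlier results of these data known. Coordinates and sequences are from RefSeq (GRCm38.p6) and GENCODE (GRCm38), the build of the tables.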

Additional observations from a re-analysis of the deposited data

How the results depend on the processing

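Smox, Sat1 and Srm kept their direction and their call under 15 other settings and 1 added after seeing the data (Amd1 and Amd2 added up; its fit with the replicate block bears on that sum alone). Leaving out each library in turn moved Odc1 between -0.72 and -0.49 and Azin1 between -0.31 and 0.10, the members called lower between 1 and 2, the surrounding genes called lower between 3 and 7, and all genes called lower between 478 and 850. Members and surrounding genes called lower were fewest without WT library 5, WT library 8 or CSF1 library 3, and all genes called lower without WT library 5 (478) or 8 (526). It moved Eif5a between -0.085 and 0.11 and Oat between -0.14 and 0.034. Among changes that did not pass, it moved Sms between -0.60 and -0.22, Paox between -0.57 and -0.15, Oaz1 between 0.042 and 0.18, Amd1 and Amd2 added up between -0.55 and -0.21, Myc between -0.33 and -0.15, Dohh between -0.65 (which passed) and -0.19, and Azin1 to Oaz1 between -0.40 (without WT library 5) and 0.049 (without WT library 3). Quantile normalization gave 1694 genes higher and 2362 lower, 4 members lower, and changes of -0.84 for Sms, -0.83 for Paox, -0.087 for Oaz1 and -0.13 for Eif5a. Median-ratio scaling gave 1675 genes lower, with Oaz1 at -0.11 and Eif5a at -0.20. Rescaling outside the 5 most abundant genes gave 1437 genes lower, with Oaz1 at -0.093 and Eif5a at -0.18. Array weights gave 0.15 for Azin1 and -0.014 for Eif5a, and a pseudocount of 5 gave 0.94 for Smox to Sat1. The cause was not tested. With the library number as a replicate block, 2883 genes were higher and 890 lower, the members stayed at 2 and 2, and no call of a gene named here changed (Odc1 limma adjusted p = 0.00715). Of the surrounding genes, 5 were then higher and 7 lower.

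Sms, Paox and Azin2 had low FPKM, and the failed estimates leave Amd1 and Amd2 without a test of their own. With 3 libraries a group, a p that misses the threshold does not show that a gene was equal in both groups.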
